A study of Irpex lacteus with 9 samples.

Results

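The versatile peroxidases and ligninases described here are 9 of the 19212 genes in the deposited expression table of the white-rot fungus *Irpex lacteus* on wheat straw. They were chosen by annotation, with earlier results of these data known. Each carries the KEGG orthology term K20205, and each has a best Swiss-Prot match called a versatile peroxidase or a ligninase. A further 2 genes fit these terms but are not in the list, as described below. RNA was sequenced from 9 bulk libraries, 3 from straw given distilled water, 3 from straw given NH4Cl as an ammonium source and 3 from straw given NaNO3 as a nitrate source. The strain, the amounts of salt and the days of growth are not given in the sources used here. All 3 groups share the straw, so each comparison asks what an added nitrogen salt, or its kind, goes with on that substrate.

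Class II peroxidases are secreted heme enzymes with which white-rot fungi attack lignin, the aromatic polymer of plant cell walls, at the expense of hydrogen peroxide. Manganese peroxidases oxidise manganese(II) to manganese(III), which diffuses into the wall as a chelate, while lignin peroxidases, the older ligninases, take electrons from non-phenolic aromatic rings at the enzyme surface. Versatile peroxidases, known best from *Pleurotus eryngii*, join both activities in a single protein.

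The names are those of the best match in another fungus, not of a tested activity. Among the 9 genes, 7 have product names from *Pleurotus eryngii*, of which 4 are VPS1, 2 are VPL1 and 1 is VPL2. The other 2 genes are named after the *Phanerochaete chrysosporium* ligninases LG2 and LG5. The deposited best match in the NCBI protein database is a manganese peroxidase of *Irpex lacteus* itself for 8 of the 9, all but the LG2 gene, so the table's own columns differ on whether these are versatile or manganese peroxidases. A domain with peroxidase in its name is listed for 8, the LG5 gene being the exception. For BC629DRAFT_1291806, BC629DRAFT_1293608 and BC629DRAFT_1589175 the domain listed is a fungal peroxidase extension region, not the peroxidase domain itself. Of the 9, 3 are new genes assembled from the reads (the names that begin with NewGene) and 6 have locus tags. A pair of further genes, BC629DRAFT_295458 and BC629DRAFT_936069, also carry K20205 and a VPS1 product name but are not in the list of members and are counted here among 7 other class II peroxidases. Whether near-identical copies shared reads in the authors' counting could not be checked, nor whether new genes overlap annotated ones. Levels of single genes in this family, and the likeness of a new gene to another gene, are uncertain to that extent.

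Depth ran from 17896230 to 23194078 counts per library. Levels within a gene are given as CPM after TMM scaling, that is counts divided by the scaled library size. Levels between genes are given as FPKM, which also divides by transcript length. The length implied by counts and FPKM was not constant over libraries for every gene. Its ratio ran from 0.486 to 1.09 for NewGene_2766 over BC629DRAFT_936069 and from 1.27 to 2.54 for BC629DRAFT_1291806 over NewGene_2665. FPKM orders and shares of these genes are uncertain to that extent. NH4Cl replicate 3 and NaNO3 replicate 1 stood apart from the other 7 libraries in several, but not all, of the genes described below. They also stood apart in 32 genes of cellulose attack (cellulase, lytic polysaccharide monooxygenase and cellobiose dehydrogenase families), whose summed share of all counts was 1.46% and 0.482% there and 0.0720% to 0.276% elsewhere. Over the groups that share ran from 0.112% to 0.234% in water, 0.0720% to 1.46% in NH4Cl and 0.121% to 0.482% in NaNO3. The part of whatever sets these 2 libraries apart in each result was not tested, and each tested member's fold changes are given with and without them. The labels do not say whether replicates were separate cultures, so p-values measure only the spread between these samples.

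Together the 9 genes took 3.54%, 4.82% and 3.90% of all counts in the water libraries. They took 4.59%, 3.93% and 1.31% in the NH4Cl libraries and 0.110%, 5.27% and 3.57% in the NaNO3 libraries. The low values belong to the 2 libraries that stood apart, and the other 7 libraries, from all 3 groups, lay between 3.54% and 5.27%. Counting error is far smaller than these differences: the 95% Wilson interval was 1.30% to 1.31% for NH4Cl replicate 3 and 0.108% to 0.111% for NaNO3 replicate 1. In bulk RNA, fewer cells that express these genes and less of their RNA per cell cannot be told apart.

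**Figure D1:**
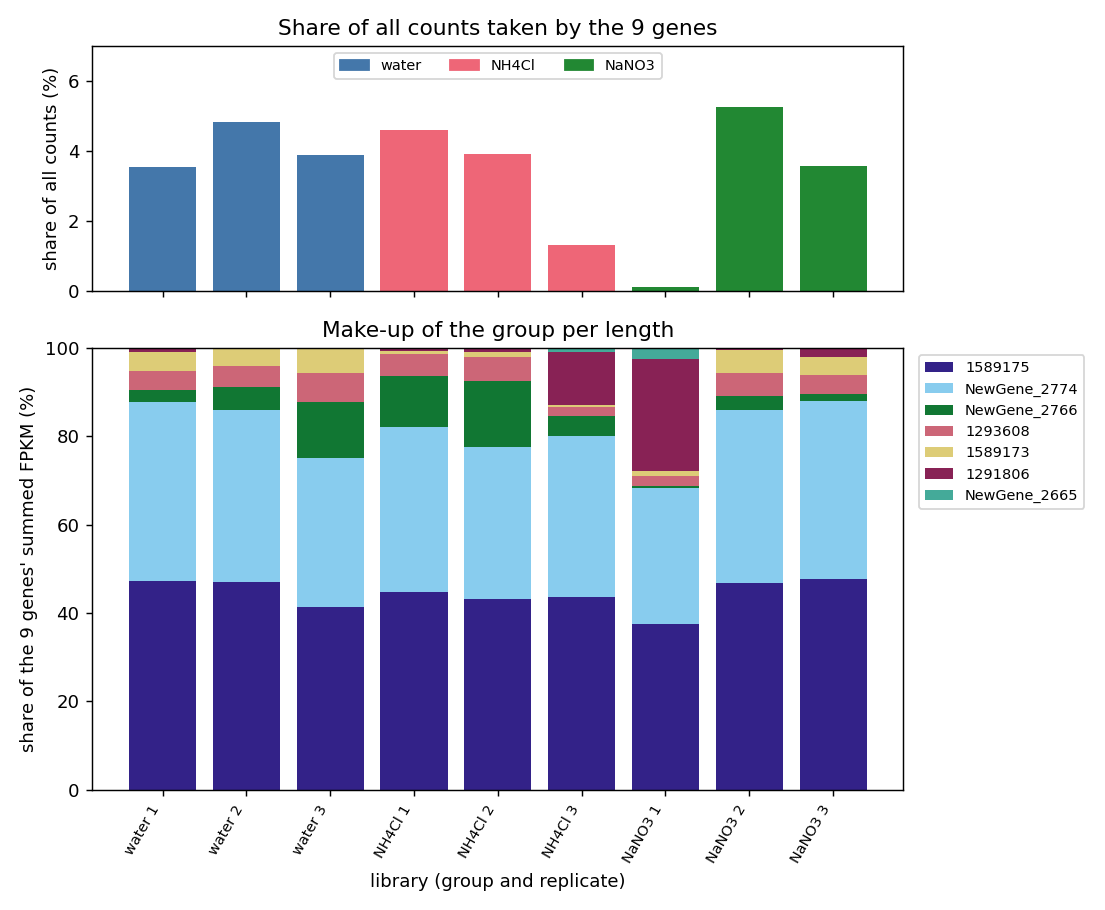
The upper bars give the share of all counts (%) taken by the 9 genes in each library, coloured by group, and the lower stacked bars give each gene's share (%) of their summed FPKM. BC629DRAFT_1589175 and NewGene_2774 fill most of every bar, the upper bars are lowest at 1.31% in NH4Cl replicate 3 and 0.110% in NaNO3 replicate 1, and BC629DRAFT_1291806 reaches 12.01% and 25.2% of the summed FPKM in those 2 libraries. BC629DRAFT_1480363 and BC629DRAFT_1589180 are too low to be drawn.

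No member passed the test in any comparison. Of the 9 genes, 8 had enough counts to be tested with edgeR's quasi-likelihood test, and 0 of the 8 had a Benjamini-Hochberg adjusted p under 0.05 for NH4Cl against water, where 0.675% of all 14808 tested genes did. The count was also 0 of 8 for NaNO3 against water, where 5.06% of all tested genes were called, and 0 of 8 for NH4Cl against NaNO3, where 1.09% were. At an unadjusted p under 0.05 edgeR gave 0 members in each comparison, against 18.8%, 24.7% and 21.1% of all tested genes. DESeq2 with all 3 groups called 0 members, with an adjusted p for 7, 8 and 7 of them in the 3 comparisons. limma on log2(FPKM + 1) called 0 of 7 in each comparison. Unadjusted, DESeq2 had p under 0.05 for NH4Cl against water in BC629DRAFT_1291806 (0.00877) and NewGene_2665 (0.0174), both higher, and BC629DRAFT_1589173 (0.0464), lower. limma did so for BC629DRAFT_1291806 (0.0308) and NewGene_2665 (0.0460). The share of all genes at that level with these tools was not counted.

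The members' median log2 fold change was −0.36 for NH4Cl against water, with 3 genes above 0 and 5 below, and the median over all tested genes was −0.02. It was −0.34 for NaNO3 against water, with 2 above and 6 below, beside −0.03 for all tested genes. Both comparisons use the same water libraries. For NH4Cl against NaNO3 the median was 0.04, with 5 above and 3 below, beside 0.02 for all tested genes. The standard errors of the members ran from 0.44 to 1.499 on the log2 scale, while the median over all tested genes was 0.26 in each comparison. The members' fold changes were thus less certain than those of a typical gene. A missed threshold at such errors does not show equal levels.

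**Figure D2:**
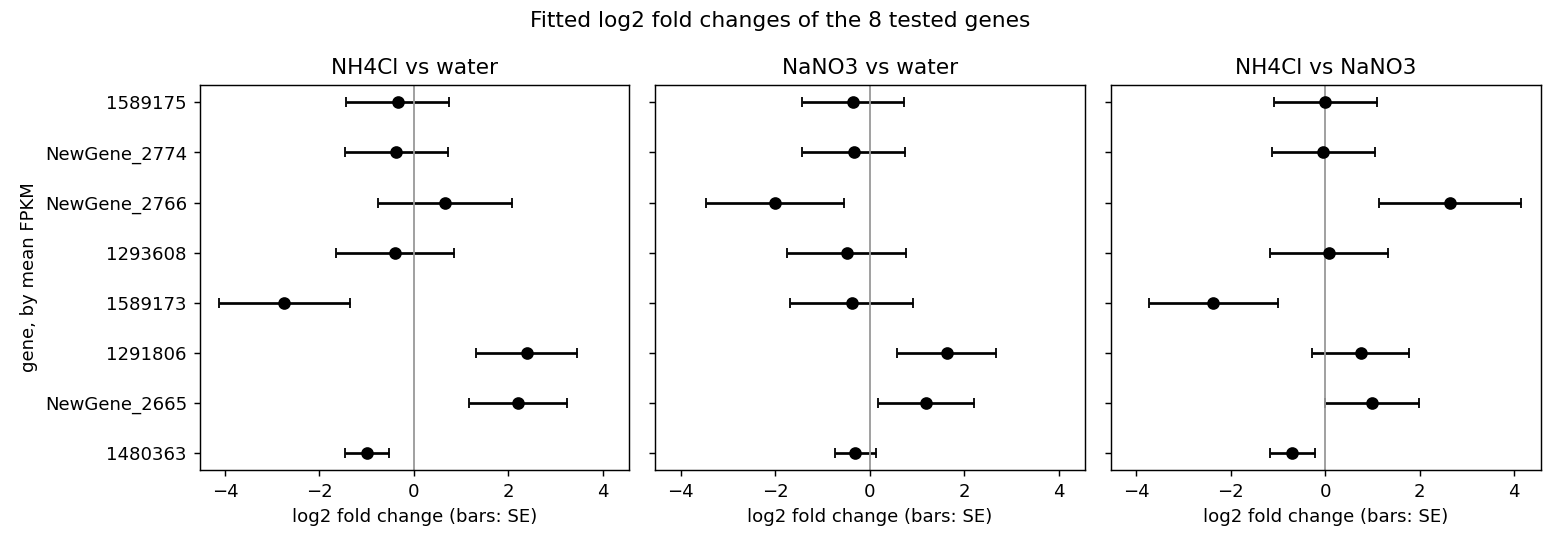
Fitted log2 fold changes (x axis, bars ± SE) of the 8 tested genes, ordered by mean FPKM, in the 3 comparisons. The bars of the abundant pair lie across 0 in all 3 comparisons, and BC629DRAFT_1589173 at −2.74 and BC629DRAFT_1291806 at 2.38 lie farthest from 0 for NH4Cl against water, without passing the adjusted threshold.

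Per length, the order of the genes by mean FPKM over the 9 libraries was BC629DRAFT_1589175 (11298 FPKM), NewGene_2774 (9408), NewGene_2766 (1816), BC629DRAFT_1293608 (1249), BC629DRAFT_1589173 (827), BC629DRAFT_1291806 (300.4), NewGene_2665 (23.4), BC629DRAFT_1480363 (0.322) and BC629DRAFT_1589180 (0.245). The first pair held ranks 2 and 4 among all genes of the table. Neighbours in this order kept the same order in all 9 libraries for the first to the second, the second to the third, the fourth to the fifth, the sixth to the seventh and the seventh to the eighth. NewGene_2766 exceeded BC629DRAFT_1293608 in FPKM in only 5 of 9 libraries, and BC629DRAFT_1589173 exceeded BC629DRAFT_1291806 in 7 of 9. The exceptions to the latter were NH4Cl replicate 3 (39.4 against 1142 FPKM) and NaNO3 replicate 1 (10.4 against 207 FPKM). The order of those neighbours thus differed between libraries, and it was not tested. The last pair, BC629DRAFT_1480363 over BC629DRAFT_1589180, kept the order in 7 of 9.

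The bulk of the family's transcript came from a VPL1 gene and a VPS1 gene. BC629DRAFT_1589175, the VPL1 gene, had 13207, 17598 and 13089.9 CPM in water. It had 17002, 13477 and 4095 CPM in NH4Cl, and 278, 20735 and 13434 CPM in NaNO3. NH4Cl replicate 3 was the lowest of its group and NaNO3 replicate 1 lay below every other library, while NaNO3 replicate 2 was the highest of all, so the groups overlap. The highest NaNO3 library had 74.6 times the CPM of the lowest, against 1.34 times in water and 4.15 times in NH4Cl. The fitted log2 fold change was −0.34 ± 1.09 (SE) for NH4Cl against water (edgeR adjusted p 0.901). NaNO3 against water gave −0.35 ± 1.09 (edgeR adjusted p 0.870) and NH4Cl against NaNO3 gave 0.01 ± 1.09 (edgeR adjusted p 0.999). With the 2 libraries that stood apart left out, the values in the same order were 0.08, 0.24 and −0.17, all uncalled.

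NewGene_2774, a new gene with a VPS1 product name, had 19669, 25386 and 18620.5 CPM in water. NH4Cl libraries had 24508, 18712 and 5958 CPM, and NaNO3 libraries had 397, 30332 and 19722 CPM. The same 2 libraries were low, and the groups overlap. Its log2 fold change was −0.37 ± 1.10 for NH4Cl against water (edgeR adjusted p 0.892). For NaNO3 against water it was −0.34 ± 1.10 (edgeR adjusted p 0.876), and for NH4Cl against NaNO3 it was −0.04 ± 1.09 (edgeR adjusted p 0.988). Without the 2 libraries that stood apart these were 0.043, 0.26 and −0.21, none called.

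BC629DRAFT_1589175 and NewGene_2774 moved together, though whether the new gene overlaps the annotated one could not be checked. The CPM ratio of NewGene_2774 to BC629DRAFT_1589175 lay between 1.39 and 1.49 in all 9 libraries, while the level of BC629DRAFT_1589175 ranged over 74.6 times. By likeness of pattern, measured as the SD over the 9 libraries of the log2 ratio of CPM, each was the nearest of 7682 compared genes to the other, with an SD of 0.0297. Per length the order turned, with an FPKM ratio of NewGene_2774 to BC629DRAFT_1589175 between 0.7995 and 0.8576. The pair held 37.5% to 47.7% (BC629DRAFT_1589175) and 30.8% to 40.6% (NewGene_2774) of the 9 genes' summed FPKM in every library, the libraries that stood apart included. The next nearest gene to both was BC629DRAFT_1543943, whose best database match is a clavaminate synthase-like protein, with SDs of 0.274 and 0.290. It had 8.19 CPM in NaNO3 replicate 1, 97.6 in NH4Cl replicate 3 and 368 to 543 elsewhere.

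BC629DRAFT_1293608, the second VPL1 gene, followed the abundant pair at a lower level. It had 1315, 1967 and 2251 CPM in water, 2128, 1835 and 216 CPM in NH4Cl, and 18.7, 2567 and 1362 CPM in NaNO3. The same 2 libraries were the lowest and the other 7 overlapped across groups. The log2 fold changes were −0.40 ± 1.25 between NH4Cl and water, −0.49 ± 1.25 between NaNO3 and water, and 0.08 ± 1.25 between the salts, NH4Cl over NaNO3 (edgeR adjusted p 0.899, 0.838 and 0.976). They were 0.12, 0.11 and 0.0099 without the 2 libraries that stood apart, none called. Its CPM ratio to BC629DRAFT_1589175 was 0.0996 to 0.172 in 7 libraries, 0.0528 in NH4Cl replicate 3 and 0.0671 in NaNO3 replicate 1, so it was lower there also relative to the abundant VPL1 gene. Its 3 nearest genes by pattern, NewGene_2545 (SD 0.257), NewGene_1232 (0.345) and NewGene_2546 (0.393), carry no product name.

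**Figure D3:**
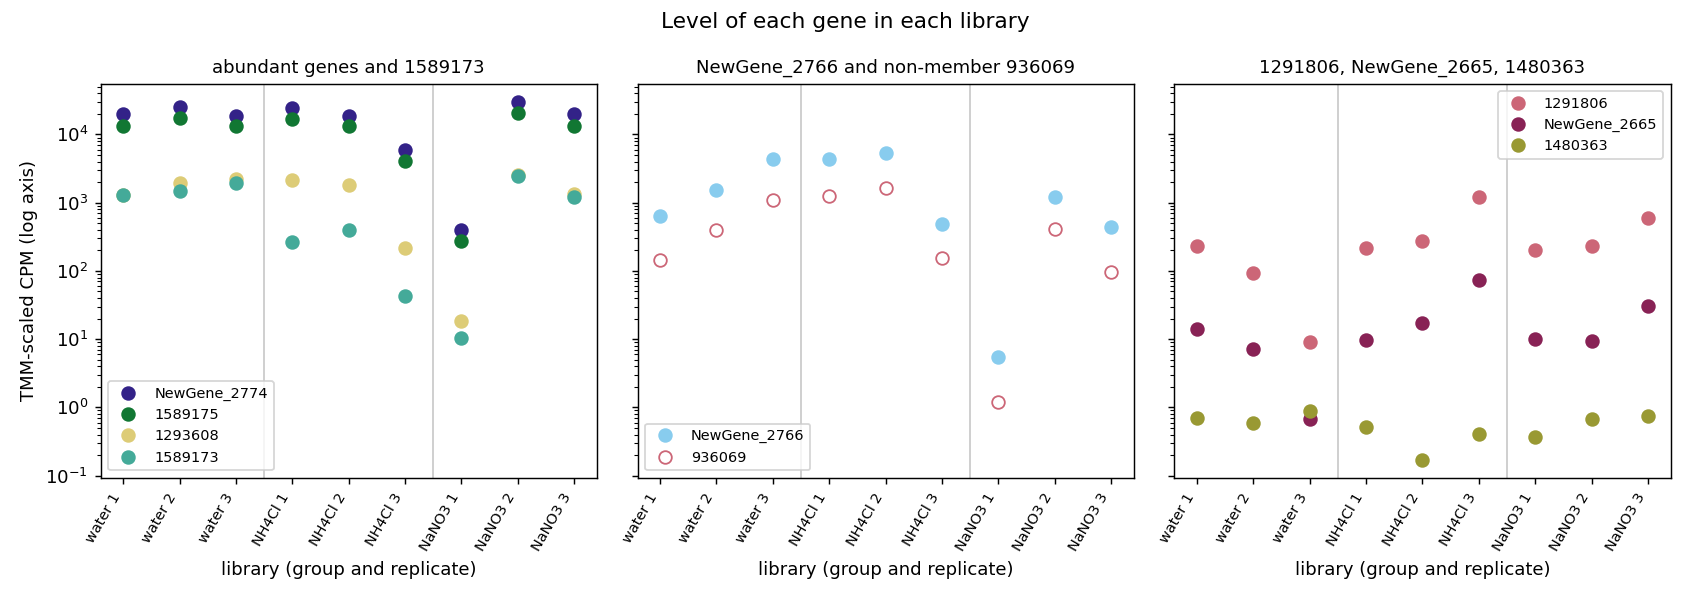
TMM-scaled CPM (log axis) of 8 members in each of the 9 libraries, with the non-member BC629DRAFT_936069 as open circles. The genes of the left panel are low in NH4Cl replicate 3 and NaNO3 replicate 1, those of the middle panel are highest in NH4Cl replicate 2, and BC629DRAFT_1291806 and NewGene_2665 of the right panel are highest in NH4Cl replicate 3 at 1231 and 73.3 CPM.

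A VPS1 gene, BC629DRAFT_1589173, was the abundant member whose ammonium libraries all lay below its water libraries. It had 1296, 1501 and 1937 CPM in water, 269, 396 and 42.5 CPM in NH4Cl, and 10.3, 2425 and 1207 CPM in NaNO3. The NH4Cl and water libraries do not overlap, and NaNO3 replicate 1 was the only library of another group below any NH4Cl library. The group means were 1578 ± 327, 236 ± 179 and 1214 ± 1207 CPM (SD, n = 3). The log2 fold change was −2.74 ± 1.38 for NH4Cl against water (edgeR unadjusted p 0.0793, adjusted p 0.328). NH4Cl against NaNO3 gave −2.36 ± 1.36 (edgeR adjusted p 0.351), and NaNO3 against water gave −0.38 ± 1.30 (edgeR adjusted p 0.883).

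Whether BC629DRAFT_1589173 was called in NH4Cl against water differed with both the libraries fitted and the tool. In NaNO3 its highest library had 236 times the CPM of the lowest, against 1.49 times in water and 9.32 times in NH4Cl. The authors' deposited table gives a log2 fold change of −2.71 for this gene with an FDR of 0.000496. DESeq2 on the NH4Cl and water libraries alone gave −2.71 with an adjusted p of 0.000546, and DESeq2 with all 3 groups gave −2.71 with an adjusted p of 0.230. edgeR on those 2 groups alone gave −2.70 with an adjusted p of 0.114. Without NaNO3 replicate 1 edgeR gave −2.70 with an adjusted p of 0.0825, and with both libraries that stood apart left out it gave −2.23 with an adjusted p of 0.0278. With both left out NH4Cl against NaNO3 was also called, at −2.45 with an edgeR adjusted p of 0.0189, while NaNO3 against water was 0.22 and not called. Those 2 libraries were picked from values of these same data and hold this gene's 2 lowest levels. Leaving them out narrows its spread, so these calls are no separate support. The direction for NH4Cl against water was the same under every alternative run, with a range of −3.34 to −2.20 when single libraries were left out.

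BC629DRAFT_1589173 was also low in NH4Cl relative to the abundant VPL1 gene, a ratio that does not depend on library scaling. Its CPM ratio to BC629DRAFT_1589175 was 0.0982, 0.0853 and 0.148 in water. The ratio was 0.0158, 0.0294 and 0.0104 in NH4Cl, and 0.0370, 0.117 and 0.0898 in NaNO3. Every NH4Cl ratio lay below every ratio of the other 6 libraries, NaNO3 replicate 1 included. As a share of the 9 genes' summed FPKM, BC629DRAFT_1589173 made up 3.67% to 5.61% in water and 0.414% to 1.16% in NH4Cl. These ratios were looked at after the level had been seen and carry no test.

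**Figure D4:**
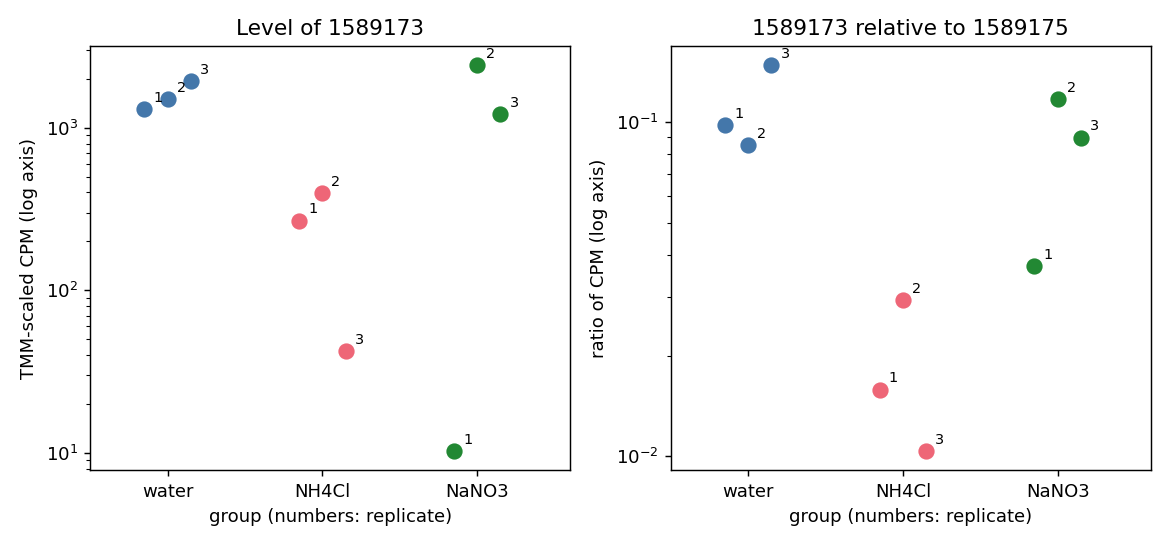
Left, TMM-scaled CPM (log axis) of BC629DRAFT_1589173 by group, each point a library numbered by replicate; right, its CPM divided by that of BC629DRAFT_1589175 (log axis). In the left panel NaNO3 replicate 1 lies below the NH4Cl libraries, and in the right panel the 3 NH4Cl points, at 0.0104 to 0.0294, lie below all others.

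The gene nearest to BC629DRAFT_1589173 in pattern was NewGene_2769, with no product name (SD of the log2 ratio 0.133). It was followed by BC629DRAFT_1531666, with the product name 4-O-methyltransferase 1 (SD 0.764), and by BC629DRAFT_1595639, an unnamed product (SD 0.799). BC629DRAFT_1531666 had 305, 426 and 480 CPM in water, 119, 85.2 and 25.4 in NH4Cl, and 5.74, 368 and 174 in NaNO3. Its NH4Cl libraries, too, all lay below its water libraries. That was part of how it was chosen.

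In all, 2 members had NH4Cl and water libraries that do not overlap, BC629DRAFT_1589173 and the LG2 gene BC629DRAFT_1480363, both lower in NH4Cl. Groups did not overlap for 28.0% of all tested genes in that comparison, so 2 of 8 is near the background. No member had groups apart for NaNO3 against water or for NH4Cl against NaNO3, where 33.0% and 25.2% of all tested genes did.

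NewGene_2766, another VPS1 gene, had a pattern of its own. It had 634, 1539 and 4345 CPM in water, 4435, 5298 and 488 CPM in NH4Cl, and 5.46, 1194 and 434 CPM in NaNO3. It was high in water replicate 3 and in NH4Cl replicates 1 and 2, and the lowest library was NaNO3 replicate 1 again. The highest library had 6.85 times the lowest in water, 10.8 times in NH4Cl and 219 times in NaNO3. Its log2 fold change was 0.65 ± 1.42 for NH4Cl against water (edgeR adjusted p 0.845). It was −2.00 ± 1.46 for NaNO3 against water (edgeR adjusted p 0.432) and 2.645 ± 1.499 for NH4Cl against NaNO3 (edgeR adjusted p 0.344). Leaving out the 2 libraries that stood apart gave 1.17, −1.40 and 2.58 in that order, none called.

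The nearest gene to NewGene_2766 was the non-member VPS1 gene BC629DRAFT_936069 (SD of the log2 ratio 0.213), with 145, 395 and 1086 CPM in water. That gene had 1265, 1648 and 153 CPM in NH4Cl and 1.18, 409 and 96.1 CPM in NaNO3. NewGene_2767, with no product name, came next (SD 0.368), and BC629DRAFT_1679279, named a sterigmatocystin biosynthesis monooxygenase, after that (SD 0.847).

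BC629DRAFT_1291806, also named VPS1, did not share the low NH4Cl replicate 3 of the abundant pair. It had 229, 93.1 and 9.16 CPM in water, 219, 277 and 1231 CPM in NH4Cl, and 204, 234 and 587 CPM in NaNO3. NH4Cl replicate 3, in which the abundant pair was low, was its highest library, and water replicate 3 was its lowest. In NaNO3 replicate 1, where 5 members reached their lowest level, it had 204 CPM, the lowest of its group but close to NaNO3 replicate 2. The log2 fold change was 2.38 ± 1.07 for NH4Cl against water (edgeR unadjusted p 0.0543, adjusted p 0.278). NaNO3 against water gave 1.63 ± 1.05 (edgeR adjusted p 0.367) and NH4Cl against NaNO3 gave 0.75 ± 1.02 (edgeR adjusted p 0.708). The first of these rests in part on single libraries: it was 1.22 without NH4Cl replicate 3 and 3.49 without water replicate 1. It was not called in any of these fits. With both libraries that stood apart left out, the values were 1.19 over water for NH4Cl and 1.92 for NaNO3, neither called. NH4Cl over NaNO3 turned, to −0.43 without NH4Cl replicate 3 and −0.72 without both libraries.

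NewGene_2665, the VPL2 gene, followed BC629DRAFT_1291806 at a lower level. It had 13.9, 7.15 and 0.671 CPM in water, 9.66, 17.2 and 73.3 CPM in NH4Cl, and 9.92, 9.24 and 31.0 CPM in NaNO3. Its CPM ratio to BC629DRAFT_1291806 stayed between 0.0395 and 0.0768 in all 9 libraries, and each was the nearest compared gene to the other (SD 0.465). Both have manganese peroxidase 1 of *Irpex lacteus* as best database match, where the other members matched to this species have a manganese peroxidase with no number. The log2 fold change of NewGene_2665 was 2.20 ± 1.04 for NH4Cl against water (edgeR adjusted p 0.298), and 0.94 without NH4Cl replicate 3. It was 1.20 ± 1.02 for NaNO3 against water (edgeR adjusted p 0.50) and 1.00 ± 1.00 for NH4Cl against NaNO3 (edgeR adjusted p 0.601). The last value turned, to −0.28 without NH4Cl replicate 3 and −0.58 without both libraries that stood apart. Over water, leaving out both gave 0.90 for NH4Cl and 1.49 for NaNO3, neither called. The second nearest gene to both, BC629DRAFT_1582828, is named an aldos-2-ulose dehydratase (SDs 0.688 and 0.882).

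The make-up of the family therefore differed between libraries of the same group. BC629DRAFT_1291806 made up 0.0265% to 1.91% of the 9 genes' summed FPKM in 7 libraries, 12.01% in NH4Cl replicate 3 and 25.2% in NaNO3 replicate 1. NewGene_2766 made up 0.424% to 14.9%, with the lowest share in NaNO3 replicate 1 and the highest in NH4Cl replicate 2. The CPM ratio of NewGene_2766 to BC629DRAFT_1291806 was 2.77, 16.5 and 474 in water, 20.2, 19.2 and 0.397 in NH4Cl, and 0.0268, 5.11 and 0.740 in NaNO3. The ratio thus crossed 1 within both nitrogen groups, and its widest spread inside a group without the 2 libraries that stood apart was in water.

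The ligninase-named genes were close to silent. BC629DRAFT_1480363, the LG2 gene, whose best database match is a manganese-repressed peroxidase of *Trametes versicolor*, had 16, 12 and 16 counts in water, 9, 3 and 8 in NH4Cl, and 8, 12 and 15 in NaNO3, or 99 in all. The 3 NH4Cl libraries, at 0.511, 0.171 and 0.406 CPM, lay below the 3 water libraries at 0.709, 0.60 and 0.894 CPM. The log2 fold change was −0.996 ± 0.464 for NH4Cl against water (edgeR unadjusted p 0.0588, adjusted p 0.286). NaNO3 against water gave −0.30 ± 0.44 (edgeR adjusted p 0.703) and NH4Cl against NaNO3 gave −0.69 ± 0.47 (edgeR adjusted p 0.423). When the 2 libraries that stood apart were left out, these became −1.07, −0.021 and −1.05, none called.

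BC629DRAFT_1589180, the LG5 gene, had 0, 7 and 4 counts in water, 0, 0 and 2 in NH4Cl, and 3, 0 and 0 in NaNO3. These 16 counts were too few for the test. In the 5 libraries at 0, a floor of 3 counts allows a level of up to 0.133 to 0.171 CPM, an interval for counting error only.

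The 7 other class II peroxidases, 5 of them named manganese peroxidase 3, gave 0 called genes in each comparison. At an unadjusted edgeR p under 0.05, 1 gene was higher for NH4Cl against water and 0 for the other comparisons. That gene was BC629DRAFT_295458, named VPS1 (log2 0.40, edgeR unadjusted p 0.0229). The share of these 7 genes in the FPKM of all class II peroxidases was 35.7%, 20.5% and 13.1% in water. It was 32.0%, 30.7% and 47.6% in NH4Cl, and 87.4%, 19.9% and 39.5% in NaNO3. The 9 versatile peroxidases and ligninases thus held most of that FPKM in 8 of 9 libraries and the lesser part in NaNO3 replicate 1. NewGene_1819, the most abundant manganese peroxidase 3 gene, had 13127, 7750.2 and 3195 CPM in water, 11876, 8684 and 4978 CPM in NH4Cl, and 2389, 8302 and 13663 CPM in NaNO3. Its lowest library, NaNO3 replicate 1, was close to water replicate 3, unlike that of the abundant versatile peroxidases. BC629DRAFT_1591871, another manganese peroxidase 3 gene, was among its highest in NaNO3 replicate 1, at 1553 CPM beside 511 and 1689 CPM in the other NaNO3 libraries and 17.5 to 506 CPM in water.

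Peroxidases need hydrogen peroxide, and glyoxal oxidases (GLOX) are a known extracellular source of it. Of 10 genes named GLOX, 8 were tested. BC629DRAFT_1281703 had 2823, 2452 and 2978 CPM in water, 1915, 2301 and 490.1 CPM in NH4Cl, and 60.2, 4366 and 3001 CPM in NaNO3. NewGene_3380 had 2415, 2083 and 2489 CPM in water, 1523, 1791 and 417 CPM in NH4Cl, and 50.6, 3413 and 2465 CPM in NaNO3. Both were low in the same 2 libraries as BC629DRAFT_1589175, and neither was called. What share of all tested genes was low in those 2 libraries was not counted, here or for the genes below. A less abundant GLOX gene, BC629DRAFT_1598350, rose with NH4Cl, from 46.0, 23.7 and 15.6 CPM in water to 208, 265 and 890.2 CPM. That gene had 28.6, 32.9 and 35.6 CPM in NaNO3. It was called higher in NH4Cl than in water (log2 3.997 ± 0.64, edgeR adjusted p 0.0420) and than in NaNO3 (log2 3.81 ± 0.63, edgeR adjusted p 0.0416). The first call was lost in 6 of 9 fits that left out a single library (water replicate 1, 2 or 3, NH4Cl replicate 2, NaNO3 replicate 2 or 3), with edgeR adjusted p up to 0.197. The second was lost in 8 of 9, all but that without NH4Cl replicate 3, with edgeR adjusted p up to 0.106. The replicate block ended both calls (edgeR adjusted p 0.115 and 0.104), as did edgeR on only the 2 groups (0.0620 and 0.102). The direction stayed the same. Both calls held with RLE scaling, with no filter, with limma (adjusted p 0.0454 and 0.0386) and with DESeq2 (adjusted p 1.55e-09 and 8.45e-09). They also held with both libraries that stood apart left out (edgeR adjusted p 0.0165 and 0.0202). No class II peroxidase was called beside it, and whether its response differs from theirs was not tested.

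**Figure D5:**
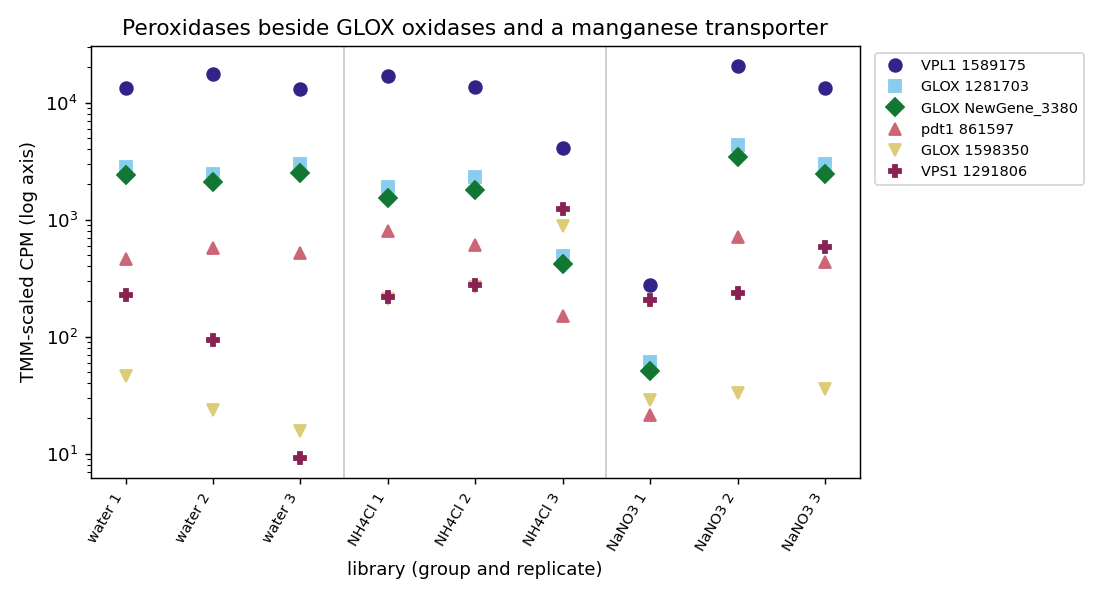
TMM-scaled CPM (log axis) in each library of the VPL1 gene BC629DRAFT_1589175 and the VPS1 gene BC629DRAFT_1291806 beside 3 GLOX genes and a manganese transporter gene; in NH4Cl replicates 1 and 2 the points of GLOX BC629DRAFT_1598350 and BC629DRAFT_1291806 nearly coincide. BC629DRAFT_1281703, NewGene_3380 and BC629DRAFT_861597 are low where BC629DRAFT_1589175 is, in NH4Cl replicate 3 and NaNO3 replicate 1, and BC629DRAFT_1598350 is highest in the 3 NH4Cl libraries.

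Manganese is oxidised by manganese and versatile peroxidases, and 3 genes are named as the manganese transporter pdt1. The most abundant, BC629DRAFT_861597, had 465, 567 and 519 CPM in water, 803, 611 and 149 CPM in NH4Cl, and 21.4, 707 and 431 CPM in NaNO3. It, too, was lowest in the 2 libraries in which BC629DRAFT_1589175 was lowest. None of the 3 was called, and the 2 less abundant ones were lower at an unadjusted edgeR p under 0.05 for NH4Cl against water and for NaNO3 against water, each time against the same water libraries. The cofactor pathway, heme biosynthesis, had 12 tested genes of 13 and 0 called in each comparison, with median log2 fold changes of 0.37, 0.38 and 0.09 in the order in which the comparisons were introduced. At an unadjusted edgeR p under 0.05, 2 of its genes were higher for NaNO3 against water and 0 for the other comparisons. The pathway's summed share of counts was 0.0641% in NH4Cl replicate 3 and 0.0678% in NaNO3 replicate 1, inside the range of the other libraries at 0.0486% to 0.0899%.

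The other oxidases and peroxidases gave no called gene. The 5 dye-decolorizing peroxidases, heme enzymes of another family, had 0 called, with 3 higher at an unadjusted edgeR p under 0.05 for NH4Cl against water, and 1 higher in each of the other comparisons. The 27 tested GMC oxidoreductases, a family that includes hydrogen peroxide-forming alcohol oxidases, had 0 called, with 4 higher and 3 lower at that p in NH4Cl than in water, 9 and 2 in NaNO3 than in water, and 3 and 6 in NH4Cl than in NaNO3. The most abundant of these, the alcohol oxidase 1 gene BC629DRAFT_1437735, was also lowest in the 2 libraries that stood apart. For the cellulose attack genes, 0 of 31 tested were called in each comparison, with 3 higher at an unadjusted edgeR p under 0.05 in NH4Cl than in water, 0 in NaNO3 than in water and 3 in NH4Cl than in NaNO3. BC629DRAFT_1582264, an exoglucanase 1 gene, had 2361 CPM in NH4Cl replicate 3 and 571 CPM in NaNO3 replicate 1, where the abundant peroxidases were low, beside 18.1 to 431 CPM in the other 7 libraries.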

How the data were processed

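Polyadenylated RNA of 9 libraries was sequenced, per the labels' protocols. The design text names another fungus, and the organism field, *Irpex lacteus*, was followed. HISAT2 and StringTie were used, per the submitters' processing notes. The counter, genome build and annotation are not given in the sources used here. The authors deposited 1 table with whole-number counts, read as raw, and FPKM per gene and library. Its further columns of other units, per the file headers, hold the authors' DESeq2 log2 fold changes and adjusted p-values. For NH4Cl and NaNO3 their sign was reversed to give NH4Cl over NaNO3. The 2 ligninase-named genes have no value there.

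Counts were tested with edgeR 4.0.16 in R 4.3.3 (filterByExpr, TMM, glmQLFit, glmQLFTest), fitting all 9 libraries together without a block, with Benjamini-Hochberg adjustment over 14808 genes (called under 0.05). TMM factors ran from 0.917 to 1.19. The SE is the unshrunken log2 fold change divided by the square root of F. The code was tested on simulated data. Alternatives were RLE scaling, no filter, DESeq2 1.42.0, limma 3.58.1 on log2(FPKM + 1) with a mean FPKM of at least 1, a replicate block, only the 2 groups compared, and libraries left out. DESeq2 with only the 2 groups was added after seeing the data. The 2 libraries that stood apart were picked from values of these same data. No replicate pair was identical (0 pairs), and the square root of the common dispersion was 0.317.

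The members and lists were chosen with earlier results of these data known. All members are named, as are, of each list, the 2 genes with the highest FPKM and the called ones, of which the text prints a part. For each member the 3 genes nearest in pattern are those with the lowest SD of the log2 CPM ratio (prior count 0.5) among 7682 genes of at least 10 CPM. Other genes, and the ratios between members, were picked with their values in view. The words planned for glyoxal oxidases matched no product name, and GLOX was added. Same-numbered replicates deviated with correlations from −0.388 to 0.422 between groups. The labels give no meaning for the numbers. With 3 libraries a group these values cannot show whether the numbers pair the samples.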

Additional observations from a re-analysis of the deposited data

How the results depend on the processing

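The count of members called was 0 in each comparison with RLE scaling, with no filter, with DESeq2 on all 3 groups, with limma on FPKM, with edgeR on only the 2 groups, and without any single library. It was 1 for NH4Cl against water with DESeq2 on only the 2 groups, and 1 for NH4Cl against water and for NH4Cl against NaNO3 when both libraries that stood apart (NH4Cl replicate 3, NaNO3 replicate 1) were left out, BC629DRAFT_1589173 each time. Both left-out libraries hold that gene's lowest levels. With the replicate block the members called were 0, 0 and 0, and over all genes the calls were 0, 0 and 3 in place of 100, 749 and 162. Leaving out single libraries moved the calls over all genes from 0 to 365, 0 to 700 and 0 to 535. They were 1197, 1934 and 1413 with DESeq2, 1306 and 890 with DESeq2 on 2 groups for the first and last comparison, 10, 492 and 12 with edgeR on 2 groups, 48, 527 and 136 with no filter, 76, 382 and 115 with limma, and 765, 1102 and 810 with both libraries left out.

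Some uncalled values changed sign. With both libraries left out, NH4Cl against water was 0.043 for NewGene_2774, 0.12 for BC629DRAFT_1293608 and 0.075 for BC629DRAFT_1589175. NaNO3 against water was 0.26, 0.11, 0.24 and, for BC629DRAFT_1589173, 0.22. NH4Cl against NaNO3 was −0.58 for NewGene_2665, −0.72 for BC629DRAFT_1291806 and −0.17 for BC629DRAFT_1589175. That comparison for NewGene_2774 was 0.0031 with no filter, 1.15 with limma and 0.18 with the replicate block, and for BC629DRAFT_1589175 it was −0.0018 with DESeq2 on 2 groups. The cause was not tested.

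With single libraries left out, NH4Cl against water ran from −0.76 to 0.075 for NewGene_2774, −0.82 to 0.15 for BC629DRAFT_1293608 and −0.71 to 0.11 for BC629DRAFT_1589175. NaNO3 against water ran from −1.07 to 0.24, −1.42 to 0.10 and −1.09 to 0.23, and −1.37 to 0.21 for BC629DRAFT_1589173. NH4Cl against NaNO3 ran from −0.57 to 0.73, −0.45 to 1.04 and −0.53 to 0.78, and −0.28 to 1.79 for NewGene_2665 and −0.43 to 1.39 for BC629DRAFT_1291806. At 16 counts the LG5 gene was too shallow to test, and DESeq2 gave no adjusted p for the LG2 gene, with 99 counts, in both NH4Cl comparisons.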
